A study of Mus musculus with 4 samples.

Results

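Mouse blastocysts that had been exposed to 2-hydroxyglutarate (2-HG) were set against their own control, gene by gene, in a study of 4 RNA libraries. The 2-HG pair makes up 2 of those 4 libraries, and the α-ketoglutarate (α-KG) control served as a further check on each difference. The groups are 2-HG at 0.3 mM, the 2-HG control, α-KG at 0.15 mM and the α-KG control, with 1 library each. All were C57BL/6 zygotes collected from the oviduct, cultured in KSOM, a medium for preimplantation embryos, and grown to blastocysts. The compounds were added at the pronuclear stage. The labels do not give the enantiomer of 2-HG, the number of embryos in a library or the strandedness of the libraries. Values are TPM, a share of each library scaled for transcript length, so levels of different genes can be compared on that scale.

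2-HG is α-KG with a hydroxyl group where α-KG has its keto group, and it is formed when isocitrate, malate or lactate dehydrogenases reduce α-KG. It is best known as an inhibitor that competes with α-KG at the iron-dependent dioxygenases: the TET enzymes that oxidise 5-methylcytosine, the JmjC histone demethylases, the prolyl hydroxylases that mark HIF and collagen, and the ALKBH enzymes that demethylate nucleic acids. The blastocyst holds an outer epithelium, the trophectoderm, which pumps fluid into the cavity, and an inner cell mass that separates into epiblast and primitive endoderm.

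A gene entered the comparison when it reached 5 TPM in 1 or both libraries of the 2-HG pair, and 9834 of 53715 listed genes did. Of these, 3295 reached 50 TPM and are called abundant here. A difference is log2(TPM + 1) with 2-HG minus log2(TPM + 1) in the control named, and it is called 2-fold when it is 1 or more in size. Folds are plain ratios of TPM. With 1 library in each group no difference has a replicate check, no test could be run, and the spread between embryos treated alike is unknown. The 2 comparisons of the 2-HG library, with its own control and with the α-KG control, share that library and are not independent of each other.

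The libraries carried the defining genes of the blastocyst. Krt8 and Krt18, the keratins of the trophectoderm, stood at 2523 and 4339 TPM with 2-HG, against 2165 and 3879 TPM in its control and 1985 and 3607 TPM in the α-KG control. They made up most of the 7 trophectoderm markers, which summed to 7170 TPM with 2-HG. That sum was 6460 TPM in the 2-HG control and 5980 TPM in the α-KG control. The 24 genes in the list of trophectoderm transcription factors summed to 1896 TPM with 2-HG, against 2337 TPM in its control and 2171 TPM in the α-KG control. The keratins were thus higher with 2-HG than in both controls, and the sum of that list was lower. Plac1, described with that list below, is not a transcription factor, so the sum need not be one of factors alone. The 6 epiblast markers summed to 163 TPM with 2-HG, against 190 TPM in its control and 243 TPM in the α-KG control. The 5 primitive endoderm markers summed to 169, 200 and 218 TPM in the same libraries. Of those 5 genes, Gata4, Sox17 and Sox7 were under 5 TPM in each of the 4 libraries, and Gata6 made up most of the sum. The most specific markers of other cells that could have come along with the embryos were near 0 in all 4 libraries. The 6 cumulus and granulosa markers summed to at most 0.122 TPM, with Amh, Fshr, Ptx3 and Has2 listed at 0 throughout, and the 4 oviduct markers to between 1.45 and 2.31 TPM. The 7 blood markers summed to at most 3.51 TPM, and the 6 oocyte markers to 6.64 TPM with 2-HG, against 2.96 TPM in its control and 1.97 TPM in the α-KG control. Wider lists of the same cell types were not near 0. The 18 cumulus and granulosa genes summed to 152 TPM with 2-HG, against 113 TPM in its control and 190 TPM in the α-KG control, with Gja1, a gap junction gene that the blastocyst also uses, as the most abundant. The 14 oviduct genes summed to 592, 748 and 575 TPM in the same libraries, led by Tubb4b, a tubulin of many cell types, and the 16 blood genes to 20.6, 23.1 and 12.8 TPM, led by Cd68. The 25 oocyte genes summed to 499, 543 and 582 TPM, led by Khdc3, a maternal transcript. The part of such cells in the results was not tested. In a whole embryo, fewer cells of a type and less RNA per cell cannot be told apart.

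Near-identical copies elsewhere in the genome bear on several abundant genes described below, and the sequences of 3 of them show how close such copies are. How the authors' tools divided reads between a gene and its copies is not given in the sources used here. The sequences come from the GENCODE M21 transcripts on GRCm38, read 5′ to 3′ on the strand of each gene, with capitals at the bases that differ between gene and copy. Rpl29 is shown at chr9:106431364-106431423 (plus strand) and its processed copy RP23-350M23.6 at chr9:7752122-7752181 (plus strand), which differ at 2 of 60 bases here. Over their aligned 480 bases the match was 99.17%.
Rpl29: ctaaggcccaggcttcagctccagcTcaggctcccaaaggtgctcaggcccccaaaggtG
RP23-350M23.6: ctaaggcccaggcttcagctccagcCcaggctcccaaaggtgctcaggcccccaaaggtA
The start of mt-Atp6 on the mitochondrial genome, chrM:7927-7986 (plus strand), is matched base for base by RP23-8J15.3, an unprocessed pseudogene at chr1:24614592-24614651 (minus strand), and the identity ran over 678 bases.
mt-Atp6: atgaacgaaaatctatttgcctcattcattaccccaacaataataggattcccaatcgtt
RP23-8J15.3: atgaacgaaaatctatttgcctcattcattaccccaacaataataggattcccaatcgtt
A stretch of the Sumo2 coding region, chr11:115534624-115534683 (minus strand), is likewise identical in RP24-241C15.1, a processed pseudogene at chr16:20176932-20176991 (minus strand), and the identity ran over 286 bases.
Sumo2: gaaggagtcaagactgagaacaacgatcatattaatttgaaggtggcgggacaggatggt
RP24-241C15.1: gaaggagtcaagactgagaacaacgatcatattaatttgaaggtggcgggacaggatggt

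Differences of 2-fold were more often lower than higher with 2-HG. Against its own control, 232 of the 9834 genes (2.36%) were past 2-fold on the higher side and 556 (5.65%) on the lower side. Fewer held against both controls: 97 genes (0.986%) passed 2-fold upwards and 204 (2.07%) downwards relative to each of them. Among the 3295 abundant genes, 31 (0.941%) were higher and 62 (1.88%) lower against the 2-HG control, and 13 (0.395%) and 20 (0.607%) held against both controls. The median difference over all 9834 genes was -0.12 against the 2-HG control and -0.02 against the α-KG control, and that between the controls themselves was 0.11 (2-HG control minus α-KG control). By sign alone, 3699 genes were above 0 and 6135 below. The share of higher genes among those past 2-fold was 29.4%, and it came to 41.9% with the median set to 0, 42.4% with median-of-ratios scaling, 39.3% against the mean of both controls and 52.9% against the α-KG control alone. Differences below are therefore read against these medians, and a change in the sign of a small difference carries no weight.

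Many of the genes past 2-fold did not hold against the α-KG control. Choosing genes by their difference from the own control favours those in which that control is extreme. Of the 232 higher genes, 102 had the same sign but under 2-fold against the α-KG control and 33 had a difference of 0 or the opposite sign. Of the 556 lower genes, these counts were 259 and 93. In 73 of the higher and 191 of the lower genes, the 2-HG control itself lay at least 2-fold away from the α-KG control on the side that produced the difference. The same share over all genes is not given here, so these counts do not set the own control apart. Over the genes at 200 TPM or more, the SD of the differences was 0.405 for 2-HG against its control, 0.433 against the α-KG control and 0.413 between the controls. Between 5 and 10 TPM these SDs were 0.788, 0.764 and 0.732. By this measure the 2-HG library lay about as far from its own control as the controls lay from each other.

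**Figure D1:**
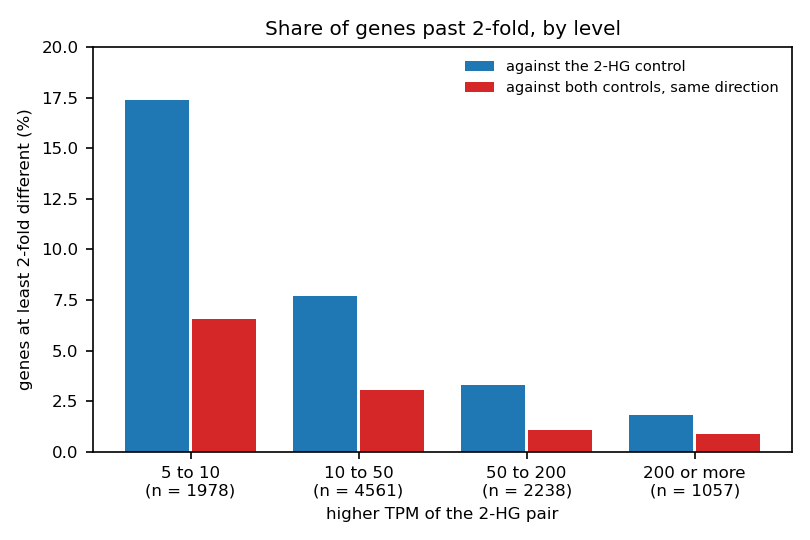
Share of genes (%) with at least a 2-fold difference of log2(TPM + 1), by the higher TPM of the 2-HG pair, for 2-HG against its own control (blue) and against both controls in the same direction (red). The share against the own control was 17.4% at 5 to 10 TPM, 7.67% at 10 to 50 TPM, 3.31% at 50 to 200 TPM and 1.8% at 200 TPM or more, and against both controls 6.57%, 3.03%, 1.07% and 0.851%.

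The share past 2-fold also differed by the kind of gene. Of 8678 protein-coding genes, 7.11% were past 2-fold in either direction against the 2-HG control, compared with 8.86% of 643 pseudogenes, 15.5% of 362 long noncoding genes and 38.5% of 143 small RNA genes. These kinds were not matched for level, and over all genes the share fell from 17.4% at 5 to 10 TPM to 1.8% at 200 TPM or more. The part of level in the shares by kind was not tested. Genes whose exons overlap another listed gene did not stand out, at 7.73% of 3414 against 8.16% of 6420 without an overlap.

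**Figure D2:**
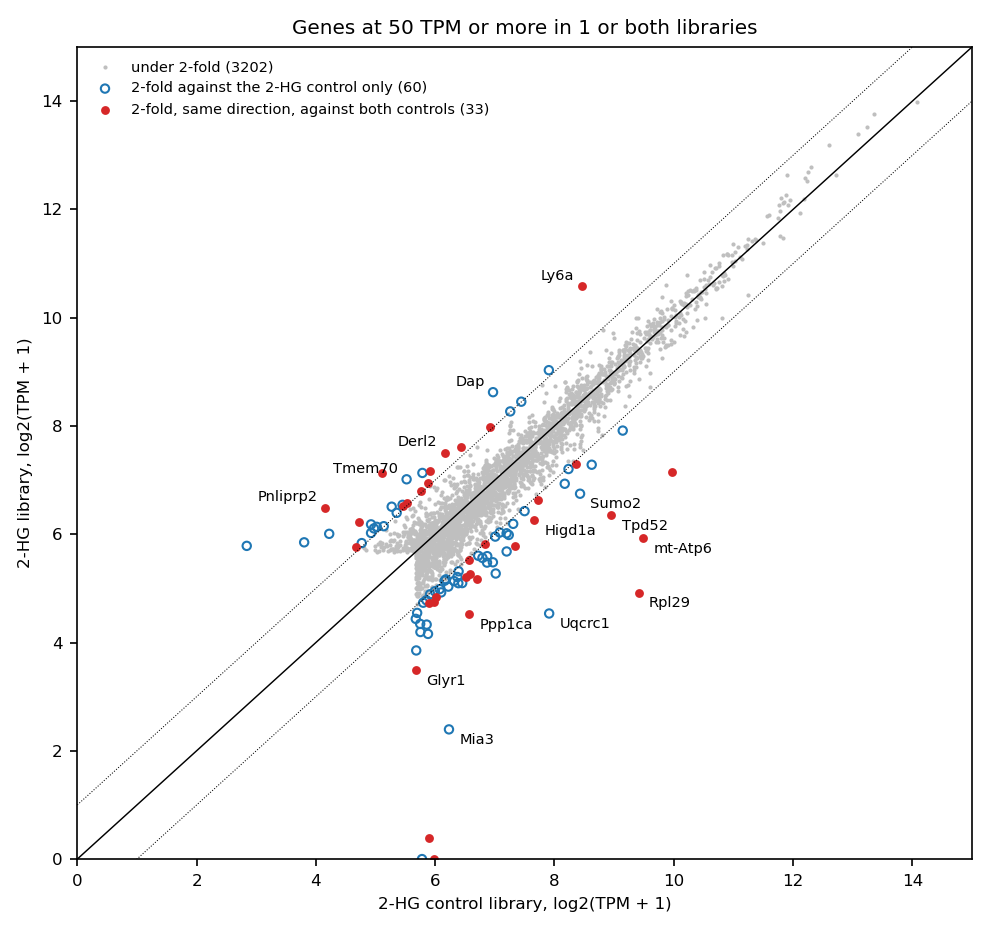
The 3295 genes at 50 TPM or more in 1 or both libraries, with log2(TPM + 1) in the 2-HG library on the y axis and in its control on the x axis. Dotted lines mark 2-fold, red points are the 33 genes past 2-fold in the same direction against both controls, and open blue circles are the 60 genes past it against the 2-HG control only, with Ly6a at 1528 against 352 TPM above the upper line and Rpl29 at 29.3 against 679 TPM below the lower one.

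The abundant genes that were higher with 2-HG than in both controls were led by Pnliprp2 and Ly6a. Leaving out 2 predicted or clone genes, 11 of the 13 are described, and in 10 of these 11 the 2-HG library was the highest of the 4. The choice of genes already places it above both controls, so only its rank against the α-KG library was free. Ly6a, which encodes the GPI-anchored surface antigen Sca-1, had 1528 TPM with 2-HG, against 352 TPM in its control, 403 TPM for the α-KG control and 310 TPM with α-KG. This is 4.34-fold over its own control (difference 2.11, and 1.92 against the α-KG control), and no other of the 11 genes reached such a level. Ly6a lies on chromosome 15, from 74994877 to 74998031 in GRCm38. The related gene Ly6c1, chosen after its values were seen, had 18.7 TPM with 2-HG, against 4.42 TPM in its control and 4.85 TPM in the α-KG control. It shares 96.58% identity with Ly6a over 263 bases, and with the TPM of both summed the difference was still 2.11. Ly6f, Ly6e and Ly6k, also chosen after their values were seen, were under 2-fold, at 18.9, 7.85 and 8.56 TPM with 2-HG, against 33.7, 8.31 and 4.71 TPM in its control.

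Efna1, the GPI-anchored ligand ephrin-A1 of Eph receptors, had 94.0 TPM with 2-HG, against 45.3 TPM in its control, 20.9 TPM for the α-KG control and 29.5 TPM with α-KG. Its difference of 1.04 from its own control, a 2.07-fold ratio, became a difference of 2.11 against the α-KG control. The controls themselves thus lay more than 2-fold apart. Pnliprp2, a pancreatic lipase-related protein that hydrolyses acylglycerols, had 88.9 TPM with 2-HG, against 16.9 TPM in its control, 32.3 TPM for the α-KG control and 24.0 TPM with α-KG. At 5.26-fold this was the largest ratio among the 11, and the gene lies on chromosome 19, from 58759719 to 58777534. Rdh14, a retinol dehydrogenase, had 53.2 TPM with 2-HG, against 24.5 TPM in its control and 25.5 TPM in the α-KG control. The α-KG library had 28.9 TPM of Rdh14, so the 3 libraries other than 2-HG lay in a narrow band below it.

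Derl2, a Derlin that draws misfolded proteins out of the endoplasmic reticulum, had 181 TPM with 2-HG, against 70.9 TPM in its control, 66.4 TPM for the α-KG control and 122 TPM with α-KG. Both treated libraries were above both controls for this gene. Its exons overlap Mis12, and the summed TPM of the overlapping genes kept a difference of 1.19. Dpm1, the catalytic subunit of dolichol-phosphate-mannose synthase, had 194 TPM with 2-HG, against 85.7 TPM in its control, 74.3 TPM for the α-KG control and 140 TPM with α-KG. The readthrough gene RP23-391M18.7 shares its exons and was listed at 0 with 2-HG and with α-KG, against 61.9 TPM in the 2-HG control and 59.5 TPM in the α-KG control. Summed with it, the difference of Dpm1 was 0.39, under 2-fold. Rnasek, ribonuclease kappa, had 251 TPM with 2-HG, against 120 TPM in its control, 79.2 TPM for the α-KG control and 86.3 TPM with α-KG, and summed with the gene that shares its exons the difference was 0.80.

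Among genes of RNA handling, Lsm10, a component of the U7 particle that trims histone mRNA ends, had 144 TPM with 2-HG, against 59.3 TPM in its control, 69.8 TPM for the α-KG control and 45.9 TPM with α-KG. It had neither a near-identical copy nor an overlapping gene, and was 2.42-fold over its own control. Larp4b, a La-related RNA-binding protein, had 90.6 TPM with 2-HG, against 43.1 TPM in its control and 33.6 TPM in the α-KG control. The α-KG library was higher still, at 114 TPM, which makes Larp4b the exception among the 11. Mprip, which links myosin phosphatase to RhoA, had 110 TPM with 2-HG, against 53 TPM in its control and 51.8 TPM in the α-KG control, with 88.2 TPM under α-KG. Summed with its overlapping genes, the difference of Mprip was 0.95, just under 2-fold. Snx30, a sorting nexin of endosomes, had 73.8 TPM with 2-HG, against 25.6 TPM in its control and 22.2 TPM in the α-KG control. The pseudogene RP23-451K12.3 overlaps its exons and went the other way, at 36.1 TPM with 2-HG, against 90.2 TPM in its control and 85.1 TPM in the α-KG control. Their sum differed by -0.07, so together they hold no difference.

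**Figure D3:**
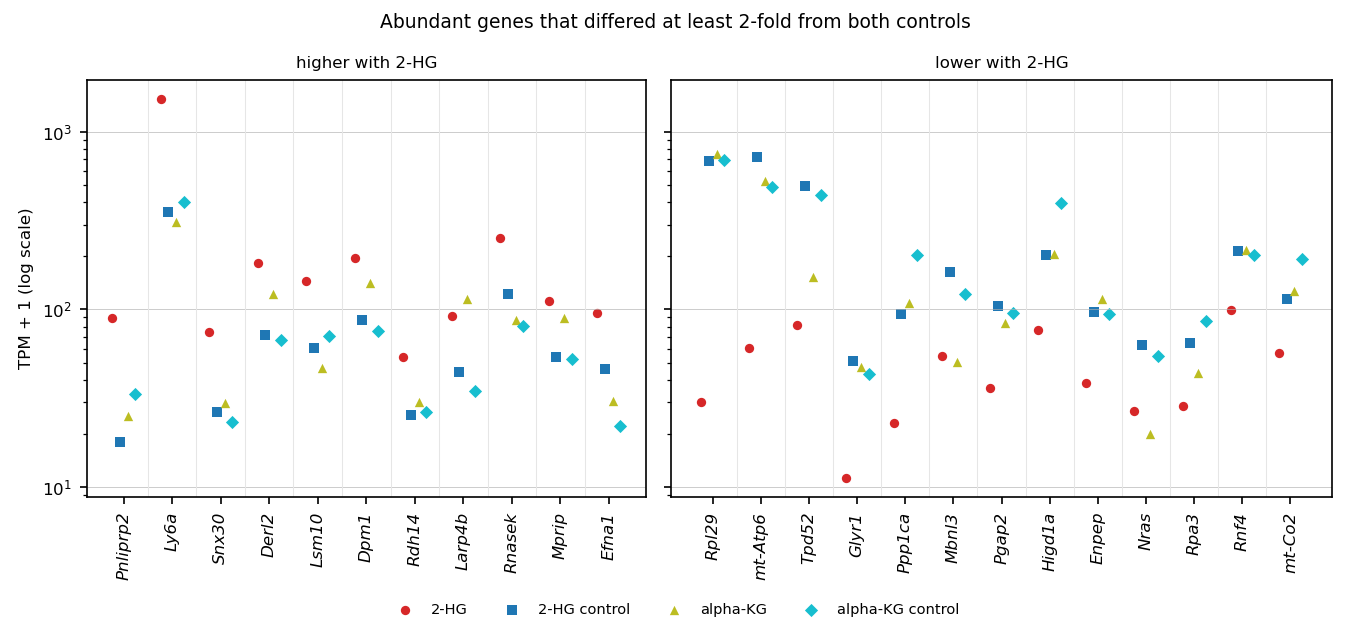
TPM + 1 on a log scale in the 4 libraries for the 11 higher and 13 lower abundant genes that differed at least 2-fold from both controls, predicted and clone genes left out, ranked by the difference from the 2-HG control. The red 2-HG point is the highest of 4 in 10 of the 11 genes on the left and the lowest of 4 in 11 of the 13 on the right. Its place beyond both controls follows from the choice of genes.

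The abundant genes that were lower with 2-HG than in both controls were led by a ribosomal protein, a mitochondrial mRNA and Tpd52. Leaving out 7 clone genes or pseudogenes, 13 of the 20 are described, and in 11 of these 13 the 2-HG library was the lowest of the 4. Here too the choice fixes its place against both controls, and only the rank against the α-KG library was free. Rpl29, a protein of the large ribosomal subunit (chromosome 9, 106429454 to 106431568), had 29.3 TPM with 2-HG, against 679 TPM in its control, 688 TPM for the α-KG control and 746 TPM with α-KG. The 3 other libraries lay close together, and the ratio was 23.2-fold lower with 2-HG. Its 36 near-identical copies, of which RP23-350M23.6 is printed above, summed to 133 TPM with 2-HG, against 170 TPM in its control and 145 TPM in the α-KG control. Gene and copies together differed by -2.38 and -2.35.

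mt-Atp6, which encodes a proton channel subunit of ATP synthase, had 59.9 TPM with 2-HG, against 718 TPM in its control, 490 TPM for the α-KG control and 529 TPM with α-KG. The identical nuclear copy RP23-8J15.3 had 357 TPM with 2-HG, against 471 TPM in its control and 527 TPM in the α-KG control, and with it the difference was -1.51. The gene also overlaps mt-Atp8 and mt-Co3, and summed with these it differed by -1.30, and by -0.86 against the α-KG control. mt-Co2, a core subunit of cytochrome c oxidase, had 55.8 TPM with 2-HG, against 113 TPM in its control, 190 TPM for the α-KG control and 126 TPM with α-KG. With its 2 nuclear copies the difference of mt-Co2 was -0.62, and with the median of all genes set to 0 it was -0.88, both under 2-fold. Other mRNAs of the same genome went both ways, and of all 13, these included, 8 were above 0 and 5 below against the 2-HG control. Higher were mt-Co1, at 11814 TPM with 2-HG, against 9629 TPM in its control, and mt-Nd1, at 10726 TPM, against 8665 TPM. Lower were mt-Atp8, at 329 TPM, against 581 TPM, mt-Co3, at 305 TPM, against 405 TPM, and mt-Cytb, at 6365 TPM, against 6729 TPM. Unlike mt-Atp6 and mt-Co2, these other mitochondrial mRNAs were not searched for nuclear copies. Higd1a, a mitochondrial protein of the hypoxia response, had 75.6 TPM with 2-HG, against 201 TPM in its control, 398 TPM for the α-KG control and 203 TPM with α-KG. The α-KG control stood highest here, and the 2-HG library was below all others.

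Tpd52, tumour protein D52 of vesicle traffic, had 80.5 TPM with 2-HG, against 494 TPM in its control and 441 TPM in the α-KG control. At 151 TPM the α-KG library was also well below both controls, and the 2-HG ratio was 6.13-fold lower. Its only near-identical copy was at 2.91 TPM with 2-HG, against 4.56 TPM in its control, so copies hardly touch the value. Mbnl3, a muscleblind splicing regulator on the X chromosome, had 53.8 TPM with 2-HG, against 162 TPM in its control, 121 TPM for the α-KG control and 49.3 TPM with α-KG. Nras, a RAS GTPase of growth factor signalling, had 25.8 TPM with 2-HG, against 62.3 TPM in its control, 53.9 TPM for the α-KG control and 18.9 TPM with α-KG. For Mbnl3 and Nras both treated libraries lay under both controls and the α-KG library was the lowest.

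Ppp1ca, a catalytic subunit of protein phosphatase 1, had 22.0 TPM with 2-HG, against 93.6 TPM in its control, 201 TPM for the α-KG control and 108 TPM with α-KG. Glyr1, a nucleosome-binding partner of the demethylase KDM1B, had 10.2 TPM with 2-HG, against 50.2 TPM in its control, 42.5 TPM for the α-KG control and 46.1 TPM with α-KG. The 3 other libraries agreed closely for Glyr1, which had neither a near-identical copy nor an overlapping gene. Rnf4, a ubiquitin ligase that recognises SUMO chains, had 98.4 TPM with 2-HG, against 211 TPM in its control, 201 TPM for the α-KG control and 216 TPM with α-KG. Rpa3, the smallest subunit of the single-strand DNA-binding complex of replication, had 27.5 TPM with 2-HG, against 63.6 TPM in its control, 85.0 TPM for the α-KG control and 42.6 TPM with α-KG. Pgap2, which remodels the lipid of GPI anchors, had 35.1 TPM with 2-HG, against 103 TPM in its control, 94.2 TPM for the α-KG control and 82.7 TPM with α-KG. Enpep, glutamyl aminopeptidase, had 37.6 TPM with 2-HG, against 95.4 TPM in its control, 93.7 TPM for the α-KG control and 114 TPM with α-KG. With the median of all genes set to 0, Rnf4 (-0.97) was just under 2-fold. Rnf4, Pgap2 and Enpep shared the pattern of Glyr1, in that the α-KG library, which the choice left free, lay near the controls.

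Other abundant genes passed 2-fold against the 2-HG control but not against the α-KG control, a choice that favours genes in which the 2-HG control is extreme. Predicted and clone genes and pseudogenes, 4 of 18 higher and 7 of 42 lower genes, were left out of the ranking. Of the 8 largest that remained in each direction, the 2-HG control was the lowest of the 4 libraries in 6 of the higher genes and the highest in 7 of the lower genes. Mia3, which packs collagen for export from the endoplasmic reticulum, had 4.26 TPM with 2-HG, against 74.1 TPM in its control, 4.46 TPM for the α-KG control and 59.98 TPM with α-KG. Uqcrc1, a core protein of respiratory complex III, had 22.2 TPM with 2-HG, against 240 TPM in its control, 12.3 TPM for the α-KG control and 258 TPM with α-KG. Sec31a, of the COPII coat, had 50.3 TPM with 2-HG, against 146 TPM in its control, 48.9 TPM for the α-KG control and 130 TPM with α-KG. In Mia3, Uqcrc1 and Sec31a the 2-HG library and the α-KG control lay together at the low level, with the 2-HG control and the α-KG library together at the high one. Tmem70, an assembly factor of ATP synthase, showed the mirror image at 128 TPM with 2-HG, against 44.9 TPM in its control, 151 TPM for the α-KG control and 40.6 TPM with α-KG, as did Fbxo18, a DNA helicase, at 63.3, 17.7, 70.4 and 19.2 TPM in the same order.

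For Sumo2, a small ubiquitin-like modifier, the gene and its copy lay on opposite sides. Sumo2 had 107 TPM with 2-HG, against 344 TPM in its control, 135 TPM for the α-KG control and 121 TPM with α-KG. Its identical copy RP24-241C15.1 had 307 TPM with 2-HG, against 152 TPM in its control, 294 TPM for the α-KG control and 267 TPM with α-KG. With its 11 copies the difference of Sumo2 was -0.25. Rpp14, a protein of ribonuclease P, had 37.7 TPM with 2-HG, against 128 TPM in its control and 45.8 TPM in the α-KG control. Slc39a2, a zinc importer, had 13.5 TPM with 2-HG, against 50.4 TPM in its control and 19 TPM in the α-KG control. Tor1aip2, an activator of torsin ATPases, had 16.9 TPM with 2-HG, against 57.9 TPM in its control and 19.5 TPM in the α-KG control. For Rpp14, Slc39a2 and Tor1aip2, 2-HG stood close to the α-KG control. Pltp, the phospholipid transfer protein, had 17.3 TPM with 2-HG, against 52.9 TPM in its control and 13.6 TPM in the α-KG control, and summed with its overlapping gene it differed by -0.27.

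Higher against the 2-HG control only were also Dap, a death-associated protein, at 394 TPM with 2-HG, against 124 TPM in its control, 240 TPM for the α-KG control and 277 TPM with α-KG. Nagpa, the enzyme that uncovers the mannose phosphate tag of lysosomal proteins, had 56.7 TPM with 2-HG, against 13 TPM in its control and 33.8 TPM in the α-KG control. The 2-HG library was the highest of 4 in both genes, by less than 2-fold over the α-KG control. Spic, an ETS factor of early embryos and macrophages, had 139 TPM with 2-HG, against 54.2 TPM in its control, 118 TPM for the α-KG control and 136 TPM with α-KG. Twistnb, a subunit of RNA polymerase I, had 90.1 TPM with 2-HG, against 37.6 TPM in its control and 119 TPM in the α-KG control. The mitochondrial tRNA genes mt-Tv and mt-Tl2 had 522 and 71.6 TPM with 2-HG, against 239 and 29.4 TPM in its control and 393 and 46.7 TPM in the α-KG control.

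**Figure D4:**
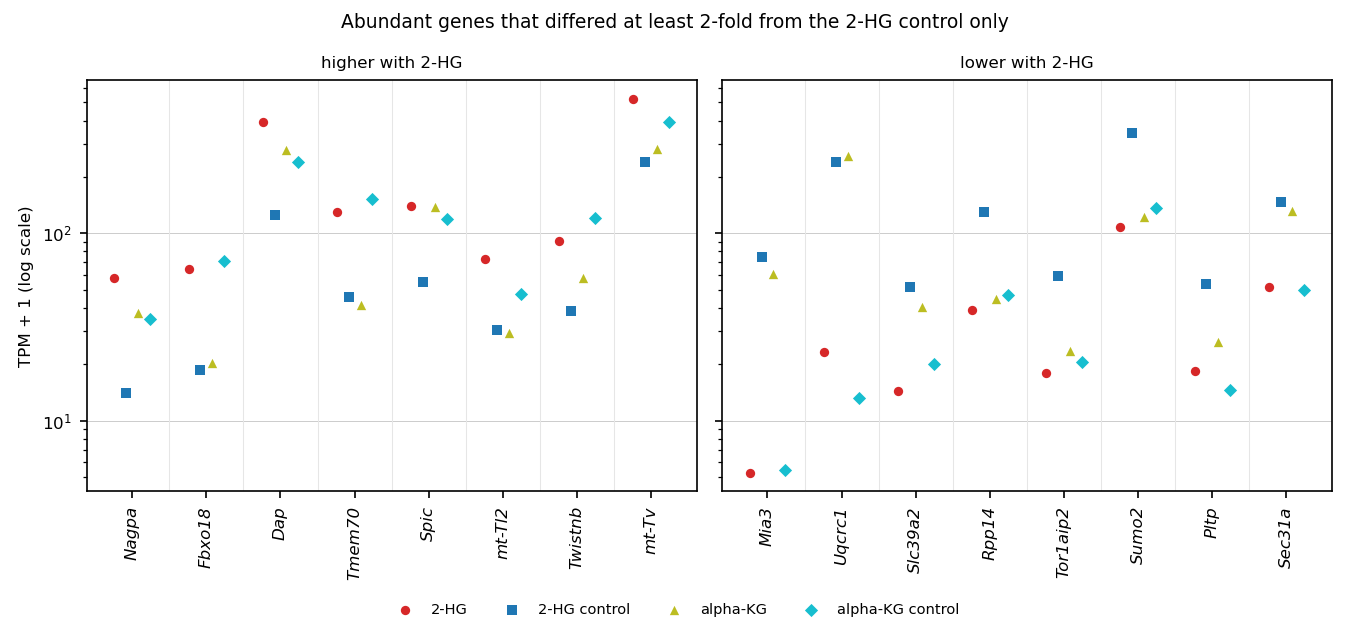
TPM + 1 on a log scale in the 4 libraries for the 8 higher and 8 lower abundant genes with the largest differences from the 2-HG control that were under 2-fold against the α-KG control. Predicted and clone genes and pseudogenes were left out. The blue square of the 2-HG control is the lowest of 4 in 6 of the genes on the left and the highest of 4 in 7 of those on the right.

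At moderate level, between 5 and 50 TPM, 84 genes were higher and 184 lower than in both controls. Of these, 19 and 56 were predicted or clone genes or pseudogenes and were left out of the ranking. The largest of the others came close to an on or off pattern. Adnp, a chromatin protein needed in embryos, had 41.3 TPM with 2-HG, against 0.19 TPM in its control and 0 in the α-KG control. The readthrough gene RP23-391M18.7 that lowered the sum for Dpm1 also spans Adnp, and Adnp summed with it differed by -0.58. Zfp281, a zinc finger regulator of pluripotency, had 16.2 TPM with 2-HG, against 0.07 TPM in each control, and 27.0 TPM with α-KG. Sh3bp5, an exchange factor for RAB11, had 41.2 TPM with 2-HG, against 2.19 TPM in its control, 2.00 TPM for the α-KG control and 39.5 TPM with α-KG. Psmd10, or gankyrin, a chaperone of the proteasome cap, had 33.3 TPM with 2-HG, against 3.66 TPM in its control, 3.11 TPM for the α-KG control and 14.8 TPM with α-KG. Sh3bp5 shares exons with another gene, and summed with it the difference was 1.95 in place of 3.73. Zfp281, Sh3bp5 and Psmd10 were thus high in both treated libraries and low in both controls.

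Ripply3, a repressor that acts with T-box factors, had 9.38 TPM with 2-HG, against 0.47 TPM in its control, 0.72 TPM for the α-KG control and 0.81 TPM with α-KG. Gnrh1, the gonadotropin-releasing hormone precursor, had 5.64 TPM with 2-HG and was listed at 0 in both controls. Gstt3, a glutathione transferase, had 6.01 TPM with 2-HG, against 0.23 TPM in its control and 0.52 TPM in the α-KG control. Ripply3, Gnrh1 and Gstt3 were high in the 2-HG library alone, at a level where the differences scatter most. Sla2, an adaptor of antigen receptors, had 5.10 TPM with 2-HG, against 0.02 TPM in its control, and with the gene that shares its exons, at 361 TPM with 2-HG and 410 TPM in its control, the difference was -0.16.

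Lower at this level was Cgn, or cingulin, a scaffold of tight junctions, at 4.13 TPM with 2-HG, against 48.9 TPM in its control, 42.2 TPM for the α-KG control and 40.2 TPM with α-KG. Cbl, a ubiquitin ligase of receptor tyrosine kinases, had 1.40 TPM with 2-HG, against 20.3 TPM in its control, 24.2 TPM for the α-KG control and 26.3 TPM with α-KG. With near-identical copies summed, the difference was -2.42 in place of -3.28 for Cgn and -2.39 in place of -3.15 for Cbl. In Cgn and Cbl the 3 other libraries lay within a narrow range of each other. Hs6st1, a heparan sulfate sulfotransferase, had 1.48 TPM with 2-HG, against 21.9 TPM in its control and 12.5 TPM in the α-KG control. Tceal8, a relative of transcription elongation factor A, had 2.20 TPM with 2-HG, against 41.9 TPM in its control, 20.2 TPM for the α-KG control and 10.9 TPM with α-KG. H19, an imprinted RNA, was listed at 0 with 2-HG, against 11.6 TPM in its control, 3.19 TPM for the α-KG control and 0.32 TPM with α-KG. Ier3, an immediate early gene, was listed at 0 with 2-HG, against 9.97 TPM in its control and 1.90 TPM in the α-KG control. For Tceal8, H19 and Ier3 the 2-HG control was the highest of the 4 libraries, so the size of the difference depends on the control.

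Many gene lists by function had a median near that of all genes. Of 60 lists with 10 or more measured members, 32 had a median within 0.1 of the -0.12 of all genes, and 28 held at least 1 member that was past 2-fold against both controls. Each count below can be set against the 2.36% of all genes that were higher and the 5.65% that were lower, or the 0.986% and 2.07% that held against both controls. Counts by sign against the own control can be set against 3699 of all 9834 genes above 0 and 6135 below. Among the list members named below, Dnmt3b, Ung, Phf8, Kdm5c, D2hgdh, Plac1, Eomes, Nanog, Krt7, Scarna9, Snord12, Snord65, Senp8, Ube2e2, Bnip3, Bnip3l and Hif1a lay outside the rule for naming genes and were chosen after their values were seen.

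**Figure D5:**
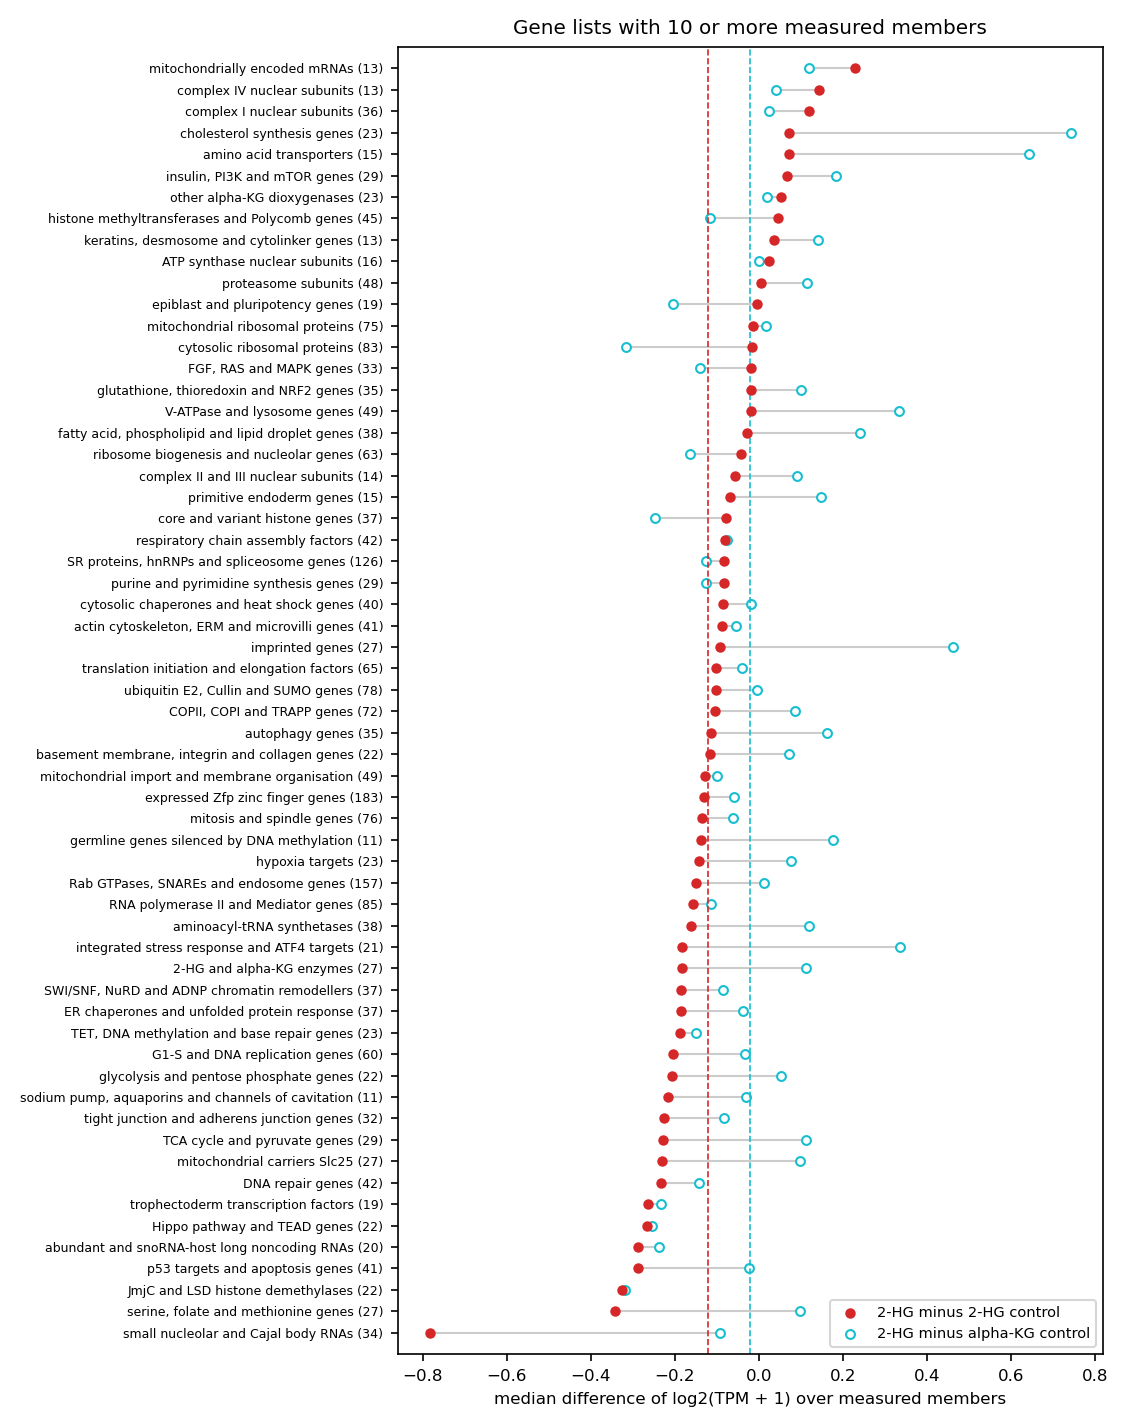
Median difference of log2(TPM + 1) over the measured members of each list (number in brackets), for 2-HG minus its own control (red) and 2-HG minus the α-KG control (open circles), with dashed lines at the medians of all genes, -0.12 and -0.02. The small nucleolar RNAs are lowest against the own control, and cholesterol synthesis genes are highest against the α-KG control at 0.74, but at 0.07 against their own.

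In the lists that hold dioxygenases that 2-HG is known to inhibit, at most 2 members each passed 2-fold in their own mRNA. The TET and JmjC lists also hold genes that are not α-KG dioxygenases, such as Gadd45b and the LSD demethylases. Of 23 measured TET, DNA methylation and base repair genes, 1 was higher and 1 lower, with a median of -0.19, and -0.15 against the α-KG control. Gadd45b, which takes part in DNA demethylation, had 2.11 TPM with 2-HG, against 6.67 TPM in its control and 9.79 TPM in the α-KG control, and held against both. Tet1, a 5-methylcytosine oxidase, had 40.9 TPM with 2-HG, against 19.8 TPM in its control and 40.7 TPM in the α-KG control, so it differed from the 2-HG control alone. Dnmt3b, a de novo DNA methyltransferase, had 55.7 TPM with 2-HG, against 103 TPM in both controls, and Ung, a uracil glycosylase, had 15.7 TPM, against 29.8 and 28.2 TPM in the 2-HG and α-KG controls. Dnmt3b and Ung were lower by nearly 2-fold against both, at -0.87 and -0.89 against their own control, without passing the size rule.

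None of the 22 measured JmjC and LSD histone demethylases passed 2-fold against the 2-HG control, at a background of 2.36% higher and 5.65% lower. Their median was -0.33, and -0.32 against the α-KG control, with 15 of 22 below 0 in each case. Jarid2, a JmjC protein without demethylase activity that works with Polycomb, had 141 TPM with 2-HG, against 249 TPM in its control and 172 TPM in the α-KG control. Phf8, a demethylase of histone H3 and H4, had 5.09 TPM with 2-HG, against 9.96 TPM in its control and 10.7 TPM in the α-KG control. Kdm5c, an X-linked demethylase of histone H3, went the other way at 7.28 TPM with 2-HG, against 3.38 TPM in its control and 2.97 TPM in the α-KG control. Among 23 other α-KG dioxygenases, Alkbh8, which modifies tRNA, was lower against both controls at 8.46 TPM with 2-HG, against 24.3 and 20.8 TPM, and Alkbh4, an actin demethylase, was higher against both at 10.01 TPM, against 4.02 and 1.02 TPM. Egln1, the main HIF prolyl hydroxylase, had 183 TPM with 2-HG, against 178 TPM in its control and 185 TPM in the α-KG control.

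Of the enzymes that make or clear 2-HG and α-KG, none of 27 measured members passed 2-fold, 23 were below 0, and the median of -0.18 was 0.11 against the α-KG control. D2hgdh, a 2-HG dehydrogenase, had 5.95 TPM with 2-HG, against 7.40 TPM in its control and 7.37 TPM in the α-KG control. Mdh2, mitochondrial malate dehydrogenase, had 716 TPM with 2-HG, against 938 TPM in its control and 575 TPM in the α-KG control. The 29 TCA cycle and pyruvate genes gave -0.23 and 0.11, with none past 2-fold. The 22 glycolysis and pentose phosphate genes gave -0.21 and 0.05, and 1 of them, Gapdh, passed 2-fold at 3.05 TPM with 2-HG, against 44.2 TPM in its control and 1.13 TPM in the α-KG control. Gapdh has 104 near-identical copies among the listed genes, and with them it stood at 330 TPM with 2-HG, against 426 TPM in its control and 210 TPM in the α-KG control, a difference of -0.37.

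The 13 mitochondrially encoded mRNAs had a median of 0.23, and 0.12 against the α-KG control, with 2 lower members, mt-Atp6 and mt-Co2, described above. All genes of the mitochondrial chromosome together took 8.83% of the TPM with 2-HG, against 7.04% in its control and 8.45% in the α-KG control, and the part of that share in these values was not tested. Nuclear subunits had medians of 0.12 for complex I, 0.14 for complex IV and 0.02 for ATP synthase, and of 0.02, 0.04 and -0.00094 against the α-KG control. Of the 36 complex I genes 26 were above 0, and none of the 65 nuclear subunits in these 3 lists passed 2-fold. Complex II and III had medians of -0.06 and 0.09, with 9 of 14 genes below 0 and 1 lower gene, Uqcrc1. The 12S ribosomal RNA mt-Rnr1, which is in no list and was chosen after its values were seen, had 6384 TPM with 2-HG, against 3810 TPM in its control and 7521 TPM in the α-KG control. Assembly factors had 2 higher genes of 42, Tmem70 and Cox19, a copper chaperone, at 32.7 TPM with 2-HG, against 9.70 TPM in its control and 24.6 TPM in the α-KG control.

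The 27 serine, folate and methionine genes had a median of -0.34, and 0.10 against the α-KG control, with only Mat2a, which makes S-adenosylmethionine, past 2-fold at 18.3 TPM with 2-HG, against 43.4 TPM in its control and 14.3 TPM in the α-KG control. In this list 7 of 27 were above 0, and Odc1, the rate-limiting enzyme of polyamine synthesis, had 1024 TPM with 2-HG, against 674 TPM in its control and 648 TPM in the α-KG control. The 29 purine and pyrimidine genes gave -0.08 and -0.13, with none past 2-fold. The 23 cholesterol genes gave 0.07 and 0.74 and the 15 amino acid transporters 0.07 and 0.64, again with none past 2-fold against their own control. The controls themselves differed by 0.65 and 0.51 in these lists (2-HG control minus α-KG control). Of 38 genes of fatty acids, phospholipids and lipid droplets, 3 were higher and 1 lower, and 2 and 1 of these held against both controls. Those were Pnliprp2, Lpcat1, a phospholipid acyltransferase, at 27.6 TPM with 2-HG, against 4.86 TPM in its control and 3.88 TPM in the α-KG control, and Pla2g1b, a secreted phospholipase, at 0.92 TPM with 2-HG, against 7.30 and 5.51 TPM. The third higher gene, Acsl3, which activates fatty acids, had 92.3 TPM with 2-HG, against 42.8 TPM in its control and 49.7 TPM in the α-KG control.

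Few lineage genes passed 2-fold. Of 19 measured genes in the list of trophectoderm transcription factors, none was higher. The 1 lower gene was Gata2, at 3.83 TPM with 2-HG, against 17.1 TPM in its control and 4.50 TPM in the α-KG control. The median was -0.26, and -0.23 against the α-KG control, with 13 of 19 and 15 of 19 below 0. Elf3 and Id2, the most abundant members of the list, had 413 and 396 TPM with 2-HG. They had 496 and 390 TPM in the 2-HG control and 355 and 465 TPM in the α-KG control. Plac1, an X-linked trophoblast gene that is not a transcription factor, had 250 TPM with 2-HG, against 422 TPM in its control and 320 TPM in the α-KG control. Eomes, a T-box factor, had 68.6 TPM with 2-HG, against 112 and 85.0 TPM in the 2-HG and α-KG controls. The 19 epiblast genes had a median of -0.0049, and -0.20 against the α-KG control. Nanog had 44.2 TPM with 2-HG, against 62.8 TPM in its control and 66.3 TPM in the α-KG control, while Dppa3, or Stella, had 4613 TPM, against 3935 and 4973 TPM. None of the 15 primitive endoderm genes passed 2-fold, and Dab2, an endocytic adaptor, had 420 TPM with 2-HG, against 295 TPM in its control and 385 TPM in the α-KG control.

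Among epithelial genes, junction genes were mostly below their own control, as were 6135 of all 9834 genes. Of 13 keratin and desmosome genes, 8 were above it. Of 32 tight and adherens junction genes none was higher and 3 were lower, with 25 of 32 below 0 and a median of -0.23. Against the α-KG control 21 of 32 were below 0, with a median of -0.08. Only Cgn held. Cldn4, a claudin, had 155 TPM with 2-HG, against 394 TPM in its control and 91.6 TPM in the α-KG control, and Amotl2, an angiomotin of junctions and Hippo signalling, had 5.89 TPM, against 31.9 and 11.9 TPM. The 22 Hippo and TEAD genes had 4 lower members, none of which held against both controls, and medians of -0.27 and -0.25. Yap1, the coactivator of TEAD factors, had 6.40 TPM with 2-HG, against 18.8 TPM in its control and 7.94 TPM in the α-KG control. Limd1, a LIM protein of the pathway, had 0.57 TPM with 2-HG, against 18.1 TPM in its control and 1.01 TPM in the α-KG control, and Tead1 had 4.98 TPM, against 15.9 and 9.86 TPM. In all 4 lower Hippo members, Amotl2 included, the 2-HG control was the higher control. The 13 keratin and desmosome genes had medians of 0.04 and 0.14, with Krt7 at 56.8 TPM with 2-HG, against 32.9 TPM in its control and 32.0 TPM in the α-KG control. The 11 genes of the sodium pump, aquaporins and channels had 1 lower member, Fxyd5, a pump regulator, at 6.86 TPM with 2-HG, against 29.6 TPM in its control and 3.25 TPM in the α-KG control.

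Of 41 actin genes 1 was higher and 2 lower, and of 22 basement membrane genes 1 was lower, and none of these held. Among 33 FGF, RAS and MAPK genes, 1 was higher and 3 lower, and Nras held. Mapk14, the stress kinase p38α, had 2.40 TPM with 2-HG, against 45.1 TPM in its control, 4.39 TPM for the α-KG control and 20.04 TPM with α-KG, and Gab1, a docking adaptor, had 34.4 TPM, against 3.18, 38.7 and 52.0 TPM. For Gab1 the 2-HG control lay apart from the other libraries, while for Mapk14 the α-KG library lay between that control and the pair of low libraries. The 29 insulin, PI3K and mTOR genes had medians of 0.07 and 0.18, with 1 higher member, Flcn, or folliculin, at 14.3 TPM with 2-HG, against 2.78 TPM in its control and 7.21 TPM in the α-KG control.

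Of 45 histone methyltransferase and Polycomb genes, 3 were higher and 1 lower, and Smyd5, a SET and MYND domain protein, held at 43.0 TPM with 2-HG, against 10.6 TPM in its control, 19 TPM for the α-KG control and 27.7 TPM with α-KG. Of 37 remodeller genes, 1 was higher, Adnp, and 2 lower, including Chd7, an ATP-dependent remodeller, at 9.24 TPM with 2-HG, against 25.6 TPM in its control and 18.7 TPM in the α-KG control. The 37 histone genes had 1 higher and 5 lower members, none of which held, and Hist1h2bc had 121 TPM with 2-HG, against 287 TPM in its control and 105 TPM in the α-KG control. Of 27 imprinted genes, 1 was higher and 3 lower, and H19 held. Xist, the RNA that coats the inactive X chromosome, had 11.2 TPM with 2-HG, against 29.7 TPM in its control and 1.04 TPM in the α-KG control. The protein-coding genes of the Y chromosome summed to 230 TPM with 2-HG, against 211 TPM in its control and 254 TPM in the α-KG control. The part of the mix of sexes in the Xist values was not tested. Of 11 measured germline genes, 1 was lower, Tex101, a germ cell surface protein, listed at 0 with 2-HG, against 5.29 TPM in its control and 2.79 TPM in the α-KG control. Fkbp6, a meiotic immunophilin, had 269 TPM with 2-HG, against 153 TPM in its control and 116 TPM in the α-KG control, under 2-fold against its own control.

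Of 83 cytosolic ribosomal protein genes, none was higher and 2 were lower, Rpl29 and Rpl10l, a retrotransposed relative of Rpl10, and the median was -0.02, and -0.32 against the α-KG control. Rpl10l had 64.4 TPM with 2-HG, against 135 TPM in its control and 81.2 TPM in the α-KG control. The 75 mitochondrial ribosomal proteins had a median of -0.01 with 1 higher gene, Mrps21, and the 65 translation factors and 38 aminoacyl-tRNA synthetases had -0.10 and -0.16 with none past 2-fold. The 63 ribosome biogenesis genes had 1 higher member, Twistnb. Of 34 measured small nucleolar and Cajal body RNAs, 3 were higher and 12 lower, with a median of -0.78, but of -0.09 against the α-KG control, and 1 and 4 held. The controls differed by 0.55 in this list. None of the 34 reached 50 TPM in either library of the pair. The higher one was Scarna9, at 5.16 TPM with 2-HG, against 0.65 TPM in its control and 0.84 TPM in the α-KG control. Those lower against both controls were Snord12, Snord65, Snord100 and Snord42b. Snord65 had 4.87 TPM with 2-HG, against 16.4 TPM in its control and 14.7 TPM in the α-KG control, and Snord42b, which lies in Rpl23a, had 0.13 TPM, against 8.51 and 2.11 TPM. Summed with the genes that overlap them, Snord12 (-0.80) and Snord42b (-0.15) were under 2-fold and Snord100 had the opposite sign (0.43).

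Among 126 splicing genes 3 were higher and 3 lower, and besides Lsm10 the gene Rbm44, an RNA-binding protein, held at 6.66 TPM with 2-HG, against 22.0 TPM in its control and 17.1 TPM in the α-KG control. Hnrnpu, a nuclear matrix protein, had 34.4 TPM with 2-HG, against 8.19 TPM in its control and 55.5 TPM in the α-KG control, and summed with its overlapping gene it differed by 0.59. Of 85 RNA polymerase II and Mediator genes, 1 was higher and 2 lower, and Med18, a Mediator subunit, held at 5.83 TPM with 2-HG, against 16.1 TPM in its control and 14.1 TPM in the α-KG control. The 183 measured Zfp genes had 9 higher and 7 lower members, 3 of each against both controls, and apart from Zfp281 these had at most 10.7 TPM with 2-HG. Of 20 abundant and snoRNA-host noncoding RNAs, 4 were lower. Neat1, the scaffold of paraspeckles, had 5.94 TPM with 2-HG, against 35.3 TPM in its control and 5.22 TPM in the α-KG control, while Malat1 had 893 TPM, against 663 and 682 TPM. Platr3, a noncoding RNA of pluripotent cells, held at 1.97 TPM with 2-HG, against 7.48 TPM in its control and 7.0 TPM in the α-KG control.

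Of 48 proteasome genes only Psmd10 passed 2-fold, and none of 40 cytosolic chaperones did. The 37 chaperone and unfolded protein response genes of the endoplasmic reticulum had Derl2 as the higher member and Hspa5, or BiP, as the lower one, at 240 TPM with 2-HG, against 565 TPM in its control and 245 TPM in the α-KG control. The 21 integrated stress response genes had 3 lower members and medians of -0.18 and 0.34, and Asns, asparagine synthetase, had 61.1 TPM with 2-HG, against 128 TPM in its control and 54.0 TPM in the α-KG control. In Hspa5 and Asns, 2-HG lay close to the α-KG control. Ddr2, a collagen receptor kinase, held at 5.95 TPM with 2-HG, against 17.6 TPM in its control and 27.9 TPM in the α-KG control, but not when summed with its overlapping gene (-0.77). The 49 lysosome and V-ATPase genes had 2 higher members and medians of -0.02 and 0.33. Arl8a, a lysosomal GTPase, held at 8.15 TPM with 2-HG, against 1.10 TPM in its control, 1.21 TPM for the α-KG control and 10.1 TPM with α-KG. Of 35 autophagy genes, 2 were lower, and Nbr1, a cargo receptor, held at 13.8 TPM with 2-HG, against 48.1 TPM in its control, 41.6 TPM for the α-KG control and 16.7 TPM with α-KG.

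The 72 COPII, COPI and TRAPP genes had no higher and 4 lower members, of which Trappc8, of a tethering complex, held at 6.71 TPM with 2-HG, against 37.3 TPM in its control and 37.4 TPM in the α-KG control. The 157 Rab, SNARE and endosome genes had 2 higher and 7 lower members, and 2 and 1 held. The lower one was Rab2b, a Golgi GTPase, at 0.34 TPM with 2-HG, against 8.96 TPM in its control, 10.3 TPM for the α-KG control and 10.2 TPM with α-KG. Summed with its overlapping genes, Rab2b differed by -0.33. Of 78 ubiquitin and SUMO genes, 3 were higher and 5 lower, and 2 of each held. Those were Senp8, a NEDD8 protease, at 29.3 TPM with 2-HG, against 13.3 and 10.7 TPM in the 2-HG and α-KG controls, Ube2e2, a ubiquitin-conjugating enzyme, at 10.4 TPM, against 4.47 and 3.89 TPM, and on the lower side Cbl and Cul7, a cullin, at 1.38 TPM, against 7.45 and 8.17 TPM.

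Of 60 genes of G1-S and replication, 1 was higher and 5 lower, and 1 and 2 held, with medians of -0.20 and -0.03. The higher one was Rpa1, the large subunit of the complex that holds Rpa3, at 31.0 TPM with 2-HG, against 9.16 TPM in its control, 7.72 TPM for the α-KG control and 34.1 TPM with α-KG. Rpa1 and Rpa3 thus lay on opposite sides of both controls. Cdk2, the kinase of S phase entry, was lower against both controls at 14.4 TPM with 2-HG, against 33.2 TPM in its control, 98.2 TPM for the α-KG control and 63.5 TPM with α-KG. Summed with its overlapping gene, the difference of Cdk2 was -0.85. Of 76 mitosis genes none was higher and 3 were lower, none of which held, with medians of -0.14 and -0.06, and with Kif11, a spindle motor, at 3.49 TPM with 2-HG, against 14.7 TPM in its control and 7.58 TPM in the α-KG control. None of 42 DNA repair genes passed 2-fold, with 30 below 0.

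Of 41 p53 and apoptosis genes, 2 were higher and 4 lower, with medians of -0.29 and -0.02, and Psmd10, Casp2 and Htra2 held. Casp2, a caspase, had 2.75 TPM with 2-HG, against 23.7 TPM in its control, 21.6 TPM for the α-KG control and 1.15 TPM with α-KG. Htra2, a mitochondrial protease, had 6.57 TPM with 2-HG, against 20.6 TPM in its control, 18.1 TPM for the α-KG control and 19.4 TPM with α-KG. Summed with its overlapping genes, Htra2 differed by -0.49, under 2-fold. The Casp2 value was low in both treated libraries and that of Htra2 in the 2-HG library only. Of 35 redox genes 1 was higher, Gstm1, a glutathione transferase, at 22.9 TPM with 2-HG, against 8.56 TPM in its control and 8.08 TPM in the α-KG control, and it held. Of 23 hypoxia targets 1 was lower, Higd1a, and the medians were -0.14 and 0.08. Aldoa and Ndrg1, the most abundant members of the list, had 627 and 503 TPM with 2-HG. They had 694 and 430 TPM in the 2-HG control and 663 and 314 TPM in the α-KG control. The mitophagy genes Bnip3 and Bnip3l were nearly 2-fold lower, at 195 and 49.2 TPM with 2-HG. Their values were 344 and 96.5 TPM in the 2-HG control and 317 and 88.8 TPM in the α-KG control. Hif1a, the oxygen-regulated subunit itself, had 58.4 TPM with 2-HG, against 38.7 TPM in its control and 39.1 TPM in the α-KG control.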

How the data were processed

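RNA was measured in 4 libraries of mouse blastocysts, made from pre-amplified cDNA per the labels' protocols. The deposited values are gene-level TPM made by the authors. The submitters' processing notes name Trimmomatic, HISAT2, Picard, StringTie, DESeq2 and the builds mm10 and GRCm38.p6, without saying which tool made which value. TPM keeps no read counts, so the depth is unknown, and no count model, interval or detection floor could be given. Of the 53715 listed genes, 53620 matched GENCODE M21 by ID, and 27 names stored as dates were recovered by ID. Differences were taken on log2(TPM + 1) between genes at 5 TPM or more in 1 or both libraries, which understates the fold of low genes.

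Genes were named by rule: the 15 largest differences in each direction at 50 TPM or more against both controls, the 8 largest at that level against the 2-HG control alone, the 8 largest between 5 and 50 TPM against both, up to 4 members of each list past 2-fold with its 2 most abundant members, and all members of lists of 15 or fewer. Predicted, clone and Rik genes and pseudogenes were left out of the ranking and counted. The name patterns for clones were widened after the data were seen. The members and lists were chosen with earlier results of these data known. Transcripts matching at 95% identity or more over 200 bases or more, and over 50% or more of the shorter one, were counted as near-identical copies. The search covered the genes named from the rankings by level, and Gapdh. Genes named only as members of lists were not searched for copies. A further 10 per-sample columns were not used. Some genes that the rule names are not reported here. The size rule was tested on simulated data with noise of a set size. That checks the code only and cannot give the error in these libraries, which is unknown. Python 3.11.15, pandas 2.3.3, NumPy 2.4.6 and matplotlib 3.10.9 were used. Alternatives covered the pseudocount, the filter, the control, the scaling, composition and overlapping genes.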

Additional observations from a re-analysis of the deposited data

How the results depend on the processing

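No paired analysis was possible because each group has 1 library, which also means that leaving out a replicate could not be tried. With a pseudocount of 5 the counts at 5 TPM or more were 92 higher and 229 lower, and 8 abundant genes were higher than both controls. From 1 TPM, and with no filter, they were 799 and 1390, and from 10 TPM 126 and 317. Against the α-KG control 423 genes were higher, and 73 abundant genes were higher and 34 lower. The mean of the controls as comparator gave 365 genes and 33 abundant genes on the lower side, and median-of-ratios scaling left 40 abundant genes lower. With overlapping genes summed, 8 abundant genes were higher than both controls. The counts not named here stayed within 1.5 times the reported ones.

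Many of the 109 genes followed were chosen for passing, or for not passing, 2-fold against the α-KG control. Their counts against it therefore follow in part from that choice. Over all genes past 2-fold against the 2-HG control at 5 TPM or more, 41.8% of the higher and 36.7% of the lower held. Of the 109 genes, 68 kept their direction and 2-fold against the α-KG control, 25 kept the direction only and 16 had the opposite sign. The 16 were Fbxo18 (-0.15), Tmem70 (-0.23), Twistnb (-0.40), Uqcrc1 (0.81), Pltp (0.33), Sec31a (0.040), Hnrnpu (-0.68), Cldn4 (0.75), Asns (0.17), Mat2a (0.33), Gapdh (0.92), Fxyd5 (0.89), Gab1 (-0.17), Hist1h2bc (0.20), Neat1 (0.16) and Xist (2.58). Against the mean of both controls only Xist turned, at 0.63. With overlapping genes summed, Snx30 (-0.075), Adnp (-0.58), Sla2 (-0.16) and Snord100 (0.43) turned. Summing near-identical copies was an alternative chosen after seeing the data, and was done only for ranked genes in which copies were found. It turned Adnp and Sla2 to the same -0.58 and -0.16. With the median set to 0 or median-of-ratios scaling, 105 of the 109 stayed past 2-fold in the same direction. The other 4 were Rnf4, mt-Co2, Asns and Rpl10l, at -0.97, -0.88, -0.93 and -0.93 with the median set to 0. The cause of these shifts was not tested beyond what each alternative itself changes. Both scalings moved the median of every list by 0.1 or more. With 1 library in each group, the error of each value is unknown.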
